A study of Mus musculus with 4 samples.

Results

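The Cyp2 family is the largest family of cytochrome P450 enzymes in the mouse. Its genes were taken from kidney sections of Uox_KO and Control mice by their symbols, Cyp2 followed by 1 subfamily letter and a number. The count tables listed 48 such genes, and the 23 with at least 20 UMIs (unique molecular identifiers, each standing for 1 captured RNA molecule) summed over all sections are described here. They belong to 10 subfamilies, and 6 members (Cyp2j) lie on chromosome 4, 7 on chromosome 7, 5 (Cyp2d) on chromosome 15, 4 (Cyp2c) on chromosome 19 and 1 (Cyp2u1) on chromosome 3. The 2 members nearest to the minimum were Cyp2d10 with 23 UMIs and Cyp2c69 with 27 UMIs, and the nearest genes under it were Cyp2c65 with 17 UMIs and Cyp2c55 with 14 UMIs. Of the 25 genes under the minimum, 13 had 0 UMIs.

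Spatial gene expression was measured with Visium, which captures RNA from a tissue section on a grid of barcoded spots, each of which can hold several cells. There were 2 Uox_KO and 2 Control kidney sections, cut at 10 µm from fresh-frozen tissue, and the titles give each section its own mouse. All mice were males of C57BL/6J background, Uox_KO mice lacking exons 2 to 4 of Uox and Control mice being wild type, and their age, litter and sequencing run are not given in the sources used here. Uox encodes urate oxidase, the enzyme that breaks down uric acid in mice but not in humans, so that mice without it are used as a model of high blood uric acid and the kidney damage that follows. The knockout is a deletion present in all tissues, bought from a company. Uox had 0 UMIs in all 4 sections, so the kidney counts give no check of the genotype labels.

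P450s of this family sit in the membrane of the endoplasmic reticulum, take electrons from a reductase, and insert oxygen into fatty acids, steroids, drugs and solvents. In the mouse kidney they are made mainly in the proximal tubule, whose convoluted (S1 and S2) and straight (S3) segments differ in which members they carry. Several members are known to be more abundant in male than in female mouse kidney.

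The sections held 53897511 and 57230517 UMIs in Uox_KO and 93524222 and 107962997 UMIs in Control, over 2590 to 2650 spots in Uox_KO and 2528 to 3362 spots in Control. The median spot had 16674 and 19600 UMIs in Uox_KO, against 37386 and 32039 in Control. All 4 sections shared 1713 of 3936 spot barcodes, since these name fixed positions on a slide. Levels are given as CPM, the counts scaled to a common total of UMIs per section, with TMM factors between sections unless called plain CPM. Summed marker levels of S1 and S2 were 5818 and 6383 plain CPM in Uox_KO sections, against 11286 and 10933 in Control sections, and those of injured tubule were 8765 and 7947 in Uox_KO, against 454 and 516 in Control. Macrophage markers summed to 1380 and 1082 plain CPM in Uox_KO, against 93.9 and 87.2 in Control, and adipocyte markers to 2097 and 3876 in Uox_KO, against 110 and 143 in Control. Most of the injured tubule sum was Spp1, with 8413 and 7633 plain CPM in Uox_KO, against 448 and 511 in Control. All 6 markers of that list were higher in both Uox_KO sections than in both Control sections. Spp1 is part of every sum of injury markers below. No marker of these 4 lists was at 0 in either genotype. Their part in the results below was not tested, and in sums over spots fewer cells of a type and less RNA per cell cannot be told apart.

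The 5′ ends of 5 members that the results turn on are shown first, because Cyp2a4 and Cyp2a5 share nearly all of this sequence yet had different values in the straight segment, and because the others lead the results by nephron segment. RefSeq windows (GRCm38.p6, the assembly behind mm10) of 300 bases, from 250 before to 50 after the annotated start, were found for 18 of the 23 members, Cyp2j13 having 2 of the 19. Capitals mark CAAAGTCC, which is part of a site bound by HNF4A, and TATAA, the core of a TATA box, each on either strand. The windows are Cyp2a4 at chr7:26306942-26307241 (plus strand), Cyp2a5 at chr7:26835089-26835388 (plus strand), Cyp2e1 at chr7:140763569-140763868 (plus strand), Cyp2d26 at chr15:82794196-82794495 (minus strand) and Cyp2d9 at chr15:82452127-82452426 (plus strand).
Cyp2a4: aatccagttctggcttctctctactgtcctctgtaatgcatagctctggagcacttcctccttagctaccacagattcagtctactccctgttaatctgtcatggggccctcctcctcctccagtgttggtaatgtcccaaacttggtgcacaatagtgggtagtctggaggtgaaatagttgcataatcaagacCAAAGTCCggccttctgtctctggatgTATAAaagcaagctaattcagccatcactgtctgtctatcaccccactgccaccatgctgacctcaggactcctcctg
Cyp2a5: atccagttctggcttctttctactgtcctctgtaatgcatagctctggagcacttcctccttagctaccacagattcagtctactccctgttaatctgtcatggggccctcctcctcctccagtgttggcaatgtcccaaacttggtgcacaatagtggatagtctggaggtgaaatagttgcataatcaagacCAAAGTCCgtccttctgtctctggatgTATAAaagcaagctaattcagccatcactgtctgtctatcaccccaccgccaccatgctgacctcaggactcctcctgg
Cyp2e1: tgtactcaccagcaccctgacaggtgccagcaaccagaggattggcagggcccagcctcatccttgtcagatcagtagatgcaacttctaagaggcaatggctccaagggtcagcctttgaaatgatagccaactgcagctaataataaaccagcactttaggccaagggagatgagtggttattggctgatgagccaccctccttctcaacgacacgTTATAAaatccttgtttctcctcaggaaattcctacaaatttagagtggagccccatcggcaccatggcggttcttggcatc
Cyp2d26: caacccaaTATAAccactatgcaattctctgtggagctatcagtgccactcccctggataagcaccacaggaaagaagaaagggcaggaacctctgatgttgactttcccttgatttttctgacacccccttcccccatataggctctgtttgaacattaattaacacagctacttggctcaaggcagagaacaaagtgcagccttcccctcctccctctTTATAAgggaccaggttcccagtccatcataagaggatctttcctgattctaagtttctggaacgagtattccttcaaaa
Cyp2d9: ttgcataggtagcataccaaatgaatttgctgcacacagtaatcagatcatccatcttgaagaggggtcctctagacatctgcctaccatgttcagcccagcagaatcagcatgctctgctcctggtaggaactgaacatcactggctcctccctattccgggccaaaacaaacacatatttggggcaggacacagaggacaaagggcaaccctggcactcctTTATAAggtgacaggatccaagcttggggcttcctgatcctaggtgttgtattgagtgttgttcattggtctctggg

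Cyp2a4 and Cyp2a5 shared 294 of 299 aligned bases, and both motifs stood in each. CAAAGTCC or its reverse complement was in 4 of 19 member windows (Cyp2a4, Cyp2a5, Cyp2c68 and Cyp2c69), against 1.42% of the 32851 windows of all genes, and TATAA in 9, against 24.9%. Cyp2c68 and Cyp2c69 shared 209 of 298 aligned bases, so the 4 windows with CAAAGTCC are not independent of one another. A match describes the letters only.

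In whole sections most Cyp2 members were lower in Uox_KO than in Control kidneys. Of 20 members that passed the filter on low counts, 14 fell, 2 (Cyp2d22 and Cyp2s1) rose and 4 (Cyp2j6, Cyp2u1, Cyp2f2 and Cyp2r1) did not pass the threshold of an adjusted p of 0.05, in edgeR's quasi-likelihood test, adjusted by Benjamini and Hochberg's method over all 16369 genes tested. Of all genes tested, 32.5% fell and 34.6% rose. The median log2 difference (Uox_KO over Control) was -0.96 over the tested members and 0.0025 over all genes tested. Cyp2c38 and Cyp2c68 passed the filter through the Control sections alone and so had to come out lower, and their calls are not read as results. Without them 12 of 18 members fell, 2 rose and 4 were not called, with a median of -0.92. Cyp2c69, Cyp2d10 and Cyp2j7 (annotated as a pseudogene) did not pass the filter. Without TMM scaling the median of all genes shifted to 0.27 and the share of higher genes among those called went to 73.6%, against 51.5% with it, while 13 of the tested members were called lower and 3 higher.

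All Cyp2 UMIs together made up 2243 and 2314 plain CPM in Uox_KO sections, against 4312 and 3951 in Control sections. Cyp2j genes gave 50.8% and 46.9% of them in Uox_KO and 40.2% and 41.1% in Control. The share of Cyp2e1, the only Cyp2e gene, was 28.8% and 36.0% in Uox_KO and 41.6% and 40.1% in Control. Cyp2a genes gave 11.99% and 9.52% in Uox_KO and 9.20% and 9.43% in Control, and Cyp2d genes 6.25% and 5.38% in Uox_KO and 8.0% and 8.21% in Control. By subfamily sum, Cyp2e, Cyp2j, Cyp2a, Cyp2d, Cyp2c and Cyp2b were lower in both Uox_KO sections than in both Control sections, while Cyp2s was higher in both.

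**Figure D1:**
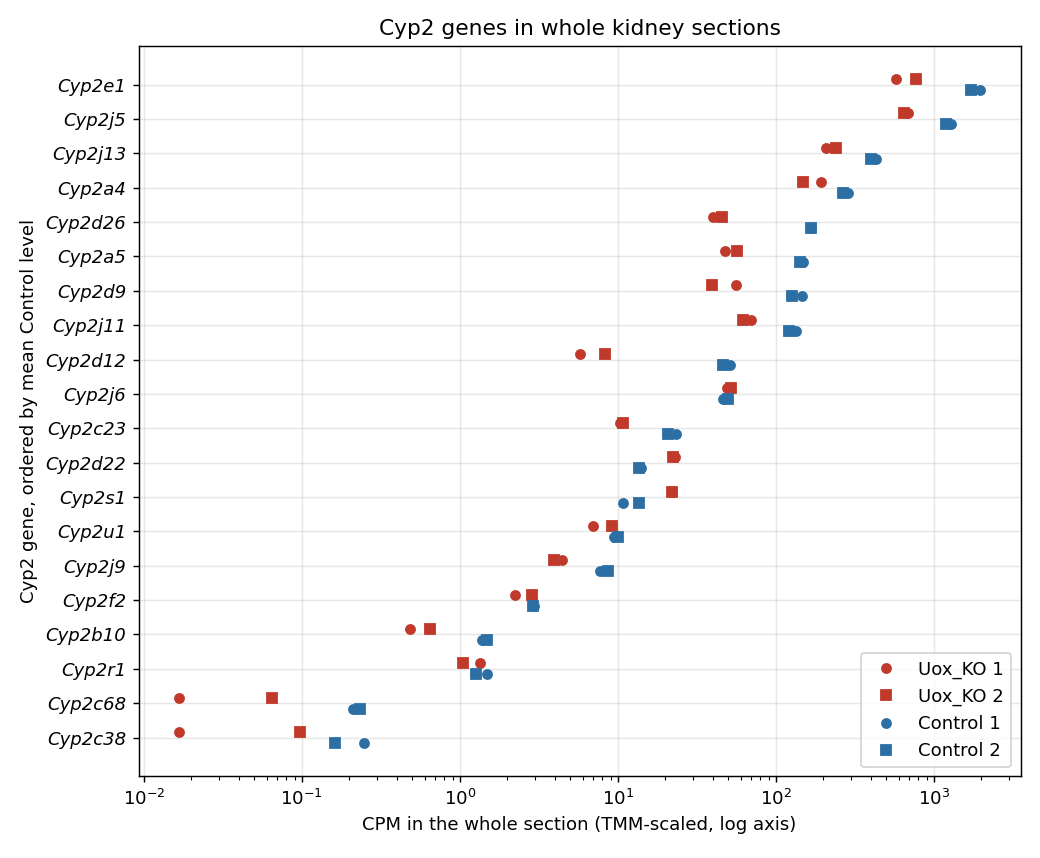
Level of each of the 20 tested Cyp2 members (down the page, by mean Control level) in each section (TMM-scaled CPM, log axis), with Uox_KO points drawn above Control points and a circle for section 1 and a square for section 2. Cyp2e1 and Cyp2d12 show wide gaps, with both Uox_KO sections below both Control sections, while Cyp2d22 and Cyp2s1 have both Uox_KO sections above.

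Cyp2e1 oxidises ethanol, paracetamol and small solvents. It had 579 and 775 CPM in Uox_KO sections 1 and 2, against 1973 and 1729 CPM in Control sections 1 and 2, a mean of 677 ± 138 in Uox_KO, against 1851 ± 172 in Control (SD, n = 2 each). Both Uox_KO sections lay far below both Control sections. Cyp2e1 fell by 1.45 ± 0.15 on the log2 scale (SE), with an adjusted p of 1.85e-04 (edgeR).

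The Cyp2j and Cyp2c members include epoxygenases, which turn arachidonic acid into epoxides that relax vessels and act on salt transport. Cyp2j5, the abundant arachidonic acid epoxygenase of mouse kidney, had 692 and 651 CPM in Uox_KO, against 1288 and 1192 in Control. It fell by 0.89 ± 0.08 on the log2 scale (edgeR, adjusted p = 1.16e-04). Cyp2j13, another kidney Cyp2j gene, had 207 and 239 CPM in Uox_KO, against 429 and 402 in Control (log2 difference -0.90 ± 0.09, edgeR adjusted p = 1.57e-04). Cyp2j11 had 69.8 and 62.2 CPM in Uox_KO, against 134 and 121 in Control, and fell by 0.95 ± 0.08 (edgeR, adjusted p = 8.57e-05). These 3 genes on chromosome 4, which are not adjacent, changed by similar amounts, with no overlap between genotypes. Cyp2j6 lies between Cyp2j11 and Cyp2j5 in the same gene cluster. It had 48.9 and 51.9 CPM in Uox_KO and 46.4 and 49.7 in Control, and the genotypes overlapped (log2 difference 0.07 ± 0.06, edgeR adjusted p = 0.355). Without TMM scaling Cyp2j6 was called higher at 0.33. Cyp2j9, a low member known from mouse brain, fell by 0.97 ± 0.11 on the log2 scale. Cyp2c23, an epoxygenase of the kidney, had 10.3 and 10.9 CPM in Uox_KO, against 23.3 and 20.9 in Control, and fell by 1.06 ± 0.08 (edgeR, adjusted p = 4.44e-05).

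The other Cyp2c members were near the limit of detection. Cyp2c68 had 1 and 4 UMIs in Uox_KO, against 18 and 23 in Control, and Cyp2c38 had 1 and 6 in Uox_KO, against 21 and 16 in Control. Each was lower in both Uox_KO sections than in either Control section, but since the Control sections alone carried them past the filter no test is given. Cyp2c69 had 0 and 1 UMIs in Uox_KO, against 14 and 12 in Control, and was not tested.

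Cyp2a4 and Cyp2a5 differ little in sequence, and the files do not say how reads that match both were counted, so the split between them is uncertain. The same holds for the clustered Cyp2d, Cyp2c and Cyp2j genes. Cyp2a4, a steroid 15-alpha-hydroxylase in mice, had 193 and 148 CPM in Uox_KO, against 288 and 265 in Control, and fell by 0.70 ± 0.13 on the log2 scale (edgeR, adjusted p = 0.00251). Cyp2a5, which hydroxylates coumarin and nicotine, had 47.8 and 56.5 CPM in Uox_KO, against 148 and 142 in Control, and fell by 1.48 ± 0.09 (edgeR, adjusted p = 1.91e-05).

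Of the 5 Cyp2d members, Cyp2d12 showed the widest gap. It had 5.72 and 8.28 CPM in Uox_KO, against 51.5 and 46.3 in Control, a mean 6.98-fold higher in Control (log2 difference -2.80 ± 0.16, edgeR adjusted p = 1.40e-05). Cyp2d26 had 40.3 and 45.8 CPM in Uox_KO, against 167 and 168 in Control, and fell by 1.96 ± 0.08 (edgeR, adjusted p = 4.38e-06). Cyp2d9, a testosterone 16-alpha-hydroxylase typical of males, had 56.3 and 39.3 CPM in Uox_KO, against 147 and 127 in Control, and fell by 1.52 ± 0.16 (edgeR, adjusted p = 2.38e-04). All 3 were lower in both Uox_KO sections than in either Control section. Cyp2d22 went the other way, with 23.2 and 22.3 CPM in Uox_KO, against 13.9 and 13.6 in Control, and rose by 0.72 ± 0.06 on the log2 scale (edgeR, adjusted p = 7.64e-05). Cyp2d10 had 9 and 6 UMIs in Uox_KO and 5 and 3 UMIs in Control and was not tested.

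Cyp2s1, a P450 of epithelia that dioxin induces, had 21.9 and 22.0 CPM in Uox_KO, against 10.8 and 13.7 in Control, and rose by 0.84 ± 0.11 (edgeR, adjusted p = 5.64e-04). Cyp2u1, which hydroxylates long-chain fatty acids, averaged 8.04 ± 1.58 CPM in Uox_KO and 9.72 ± 0.34 in Control (SD, n = 2 each), and edgeR's adjusted p was 0.106, but 0.00258 without Uox_KO 2. Cyp2r1, the vitamin D 25-hydroxylase, averaged 1.201 ± 0.21 CPM in Uox_KO and 1.38 ± 0.15 in Control, and its genotypes overlapped. Cyp2b10, the classic phenobarbital-induced P450 of mouse liver, had 0.482 and 0.649 CPM in Uox_KO, against 1.38 and 1.49 in Control, and fell by 1.34 ± 0.22 (edgeR, adjusted p = 0.00156).

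**Figure D2:**
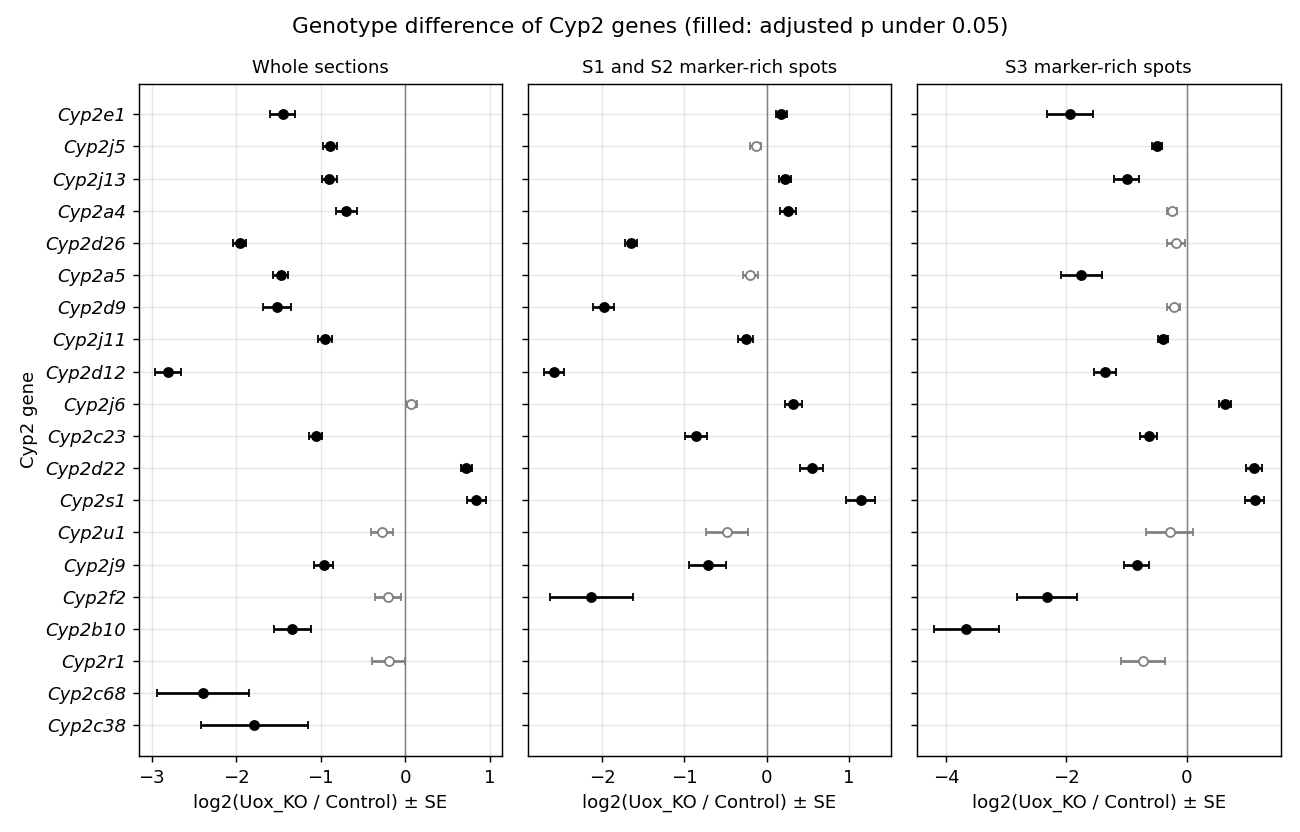
Log2 difference of Uox_KO over Control for each tested member, with its standard error as a bar and filled points for an adjusted p under 0.05, in whole sections, in spots rich in S1 and S2 markers and in spots rich in S3 markers, where the points of Cyp2c38 and Cyp2c68 in whole sections, Cyp2f2 in both spot sets and Cyp2b10 in S3 rich spots are of members that passed the filter through Control alone. Cyp2e1 is at -1.45 in whole sections, 0.18 in the S1 and S2 rich spots and -1.94 in the S3 rich spots, whereas Cyp2d26 is at -1.96, -1.65 and -0.19.

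Cyp2b10 and Cyp2f2, which activates naphthalene in mouse lung, had most of their Uox_KO UMIs in spots rich in fat or urothelium markers. Spots with at least 1000 CPM of adipocyte markers numbered 391 and 600 in Uox_KO sections, against 3 and 21 in Control sections. Of Cyp2b10 UMIs, 79.3% and 90% lay in those spots in Uox_KO, against 0% and 5.44% in Control. When the fat spots were left out, Cyp2b10 had 6 and 4 UMIs in Uox_KO, against 117 and 139 in Control, and passed the filter through the Control sections alone. Of Cyp2f2 UMIs in Uox_KO, 59.0% and 54.0% lay in fat spots and 28.4% and 35.2% in the 105 and 34 spots rich in urothelium markers, which may overlap with fat spots. Over the whole section Cyp2f2 had 2.23 and 2.86 CPM in Uox_KO and 2.94 and 2.92 in Control (edgeR, adjusted p = 0.275), and without the fat spots it had 55 and 81 UMIs in Uox_KO, against 250 and 288 in Control, and was called lower at -1.19 (edgeR, adjusted p = 0.00151). These exclusions were chosen after seeing the data.

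To compare the genotypes at a like place in the nephron, UMIs were summed over the 10% of spots of each section that scored highest for S1 and S2 markers, and likewise for S3 markers. These sets are ranges of a score and not cell types. They held 264 and 251 spots each in Uox_KO and 253 and 336 in Control. Of all spots of a section, 178 and 236 in Uox_KO and 283 and 383 in Control scored within 10% of the limit of the S1 and S2 rich set, on either side of it. The limit of the S3 rich set had 111 and 102 such spots in Uox_KO, against 316 and 366 in Control. The S3 score rested on 3 of 9 markers (Slc7a13, Slc5a10 and Atp11a), the others being too low in at least 1 section. In whole sections Slc7a13 had 243 and 164 plain CPM in Uox_KO, against 738 and 658 in Control. Slc5a10 went the other way, with 251 and 247 in Uox_KO, against 162 and 149 in Control. Atp11a had 618 and 520 in Uox_KO and 629 and 571 in Control.

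In S1 and S2 rich spots, 7 of 16 tested members fell and 6 rose, against 19.1% and 22.2% of all 12223 genes tested there (edgeR, adjusted p under 0.05). The median log2 difference was -0.23 over the members and -0.01 over all genes tested. One member called lower, Cyp2f2, passed the filter there through the Control sections alone, and without it 6 of 15 members fell and 6 rose, with a median of -0.20. Cyp2e1 had 1374 and 1441 CPM in Uox_KO, against 1252 and 1234 in Control, and rose by 0.18 ± 0.07 (edgeR, adjusted p = 0.0439). The call of this small rise was lost without Uox_KO 2 and without either Control section. It was also lost without TMM scaling, with DESeq2, without the filter on low counts and with the replicate block. With the top 20% of spots the value was -0.07. Cyp2j13 rose by 0.22 ± 0.07 and Cyp2a4 by 0.26 ± 0.09 (edgeR, adjusted p = 0.0139 and 0.0308). The call of Cyp2j13 was lost without Uox_KO 2 or either Control section, without TMM scaling and with 20% of spots. That of Cyp2a4 was lost without Uox_KO 1 or Control 1, without TMM scaling, with DESeq2, without the filter and with 5% of spots. Cyp2j5 had 981 and 989 CPM in Uox_KO, against 1085 and 1074 in Control, which did not pass the threshold (edgeR, adjusted p = 0.133).

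Of the Cyp2d enzymes, 3 were lower in these spots. Cyp2d26 had 121 and 116 CPM in Uox_KO, against 367 and 374 in Control, and fell by 1.65 ± 0.07 (edgeR, adjusted p = 3.49e-13). Cyp2d12 had 14.9 and 19.1 CPM in Uox_KO, against 105 and 100 in Control, and fell by 2.59 ± 0.12 (edgeR, adjusted p = 3.63e-13). Cyp2d9 had 13.0 and 15.8 CPM in Uox_KO, against 58.9 and 55.3 in Control, and fell by 1.98 ± 0.13 (edgeR, adjusted p = 8.85e-11). Thus 3 Cyp2d genes were several-fold lower in the same spots where Cyp2e1 was not lower. Cyp2d22 had 24.2 and 23.9 CPM in Uox_KO, against 18.3 and 14.8 in Control, and rose by 0.55 ± 0.14 (edgeR, adjusted p = 0.00401), a call lost without Control 2 (adjusted p = 0.0587) and with DESeq2 (0.0769). Cyp2s1 had 19.8 and 19.5 CPM in Uox_KO, against 7.68 and 9.91 in Control, and rose by 1.14 ± 0.17 (edgeR, adjusted p = 1.84e-05).

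In S3 rich spots, 10 of 18 tested members fell and 3 (Cyp2s1, Cyp2d22 and Cyp2j6) rose, against 20.5% and 22.9% of all 12907 genes tested there (edgeR, adjusted p under 0.05). The median log2 difference was -0.57 over the members and -0.0011 over all genes tested. Cyp2b10 and Cyp2f2, both called lower, passed the filter there through the Control sections alone, and without them 8 of 16 members fell and 3 rose, with a median of -0.45. Without TMM scaling the median of all genes shifted to 0.14 and the share of higher genes among those called was 68.8%, against 52.7%. Cyp2e1 had 265 and 703 CPM in Uox_KO, against 1936 and 1778 in Control, and fell by 1.94 ± 0.38 (edgeR, adjusted p = 0.00487). The Uox_KO sections themselves differed widely, and the log2 difference was -1.40 without Uox_KO 1 and -2.80 without Uox_KO 2. Cyp2a5 had 31.2 and 79.6 CPM in Uox_KO, against 181 and 191 in Control (log2 difference -1.76 ± 0.34, edgeR adjusted p = 0.00484), and was at -1.22 without Uox_KO 1 and -2.56 without Uox_KO 2. Cyp2j13 had 161 and 276 CPM in Uox_KO, against 442 and 432 in Control, and fell by 1.001 ± 0.21 (edgeR, adjusted p = 0.00724). In all 3, Uox_KO 1 was the lowest section.

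Cyp2j5 had 1047 and 1020 CPM in the S3 rich spots of Uox_KO, against 1468 and 1456 in Control, and fell by 0.50 ± 0.08 (edgeR, adjusted p = 0.00225). Cyp2a4 had 503 and 450 CPM in Uox_KO, against 574 and 557 in Control, and did not pass the threshold (edgeR, adjusted p = 0.0537), though it did without Uox_KO 1 or without Uox_KO 2, at -0.33 and -0.16. Cyp2d9 had 217 and 182 CPM in Uox_KO and 244 and 220 in Control (edgeR, adjusted p = 0.136, and called at -0.35 without Uox_KO 1). Cyp2d26 had 36.8 and 52.4 CPM in Uox_KO and 50.6 and 50.6 in Control, and the genotypes overlapped, with a call at -0.45 without Uox_KO 2. Cyp2d12 had 6.599 and 10.5 CPM in Uox_KO, against 21.2 and 22.2 in Control, and fell by 1.36 ± 0.19 (edgeR, adjusted p = 0.00107). Cyp2a4 and Cyp2a5, with their near-identical promoter windows, thus differed in these spots, at log2 differences of -0.25 and -1.76, though the difference between the genes was not tested.

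The sets were not alike in what else they held. In S3 rich spots, median summed S1 and S2 markers were 3908 and 6975 plain CPM in Uox_KO, against 10365 and 10221 in Control, and Uox_KO 1 was again the lowest section. Median S3 markers there were 2252 and 1850 in Uox_KO, against 2786 and 2687 in Control. Median thick ascending limb markers in the same spots were 593 and 852 in Uox_KO, against 3007 and 3956 in Control. Median injury markers were 4193 and 2973 in Uox_KO, against 186 and 203 in Control. In S1 and S2 rich spots, median S1 and S2 markers were 11823 and 11498 in Uox_KO, against 14795 and 14622 in Control, and injury markers 3399 and 2723 in Uox_KO, against 579 and 542 in Control. Fat spots in the S1 and S2 rich set numbered 30 and 52 in Uox_KO, against 1 and 0 in Control. The median spot of that set had 13867.5 and 16646 UMIs in Uox_KO, against 30799 and 28104.5 in Control. Leaving out fat spots, a step added after seeing the data, kept 12 of 13 member calls in S1 and S2 rich spots. In S3 rich spots it kept 13 of 13. The part of the other differences in the Cyp2 results was not tested.

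**Figure D3:**
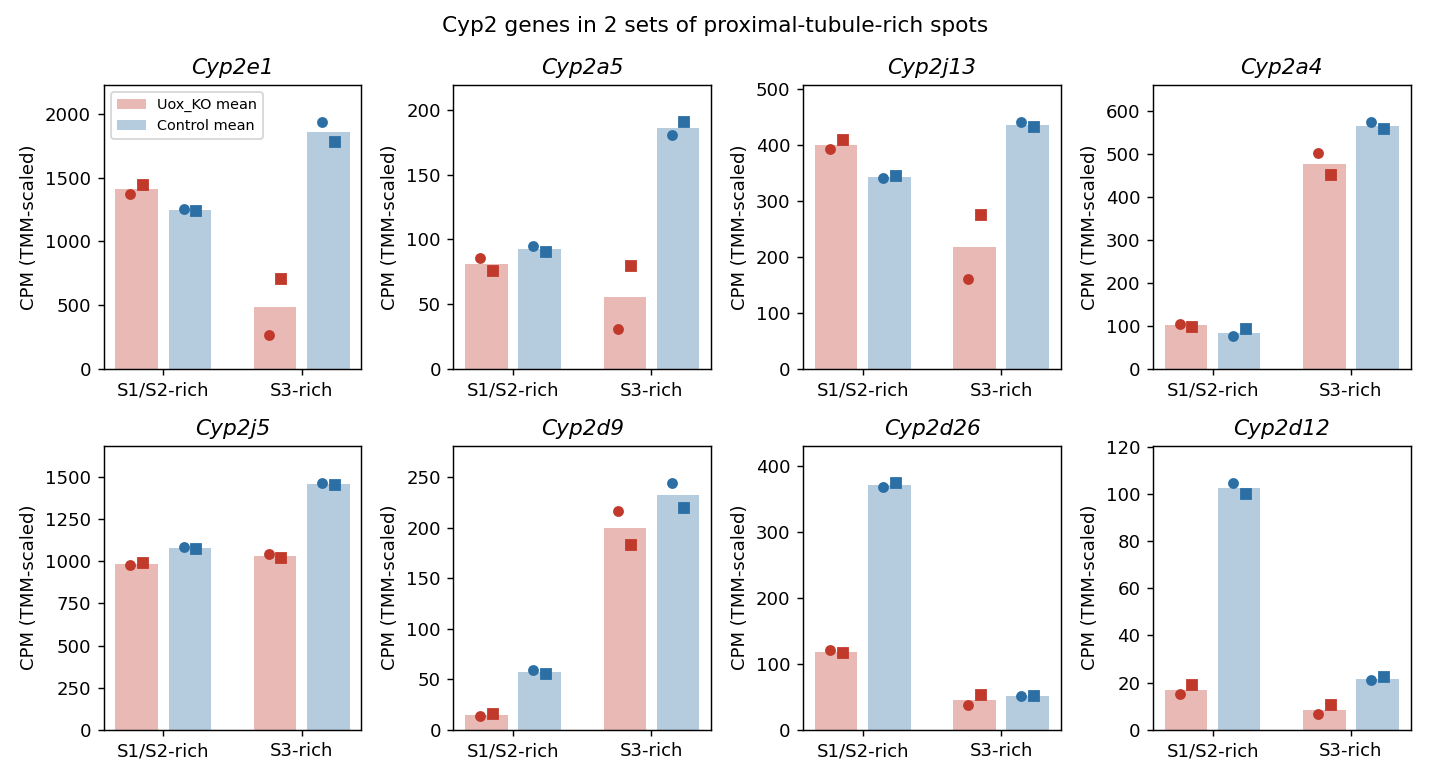
Level of the members with a tested difference between spot sets, in the S1 and S2 rich and the S3 rich spots of each section (TMM-scaled CPM), Uox_KO left of Control, with bars for means, circles for section 1 and squares for section 2. Cyp2e1 in S3 rich spots is at 265 and 703 CPM in Uox_KO, below 1936 and 1778 in Control, while in S1 and S2 rich spots it lies between 1234 and 1441 in all sections.

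Whether the genotype difference itself differed between the spot sets was tested in 1 fit with the mouse as a block. Of 18 tested members, 5 had a more negative difference in S3 rich than in S1 and S2 rich spots and 3 a more positive one, against 7.13% and 4.14% of all 13108 genes tested (edgeR, adjusted p under 0.05). Cyp2e1 had the largest such term among members, -2.28 ± 0.27 on the log2 scale (edgeR, adjusted p = 1.11e-04), and Cyp2a5, Cyp2j13, Cyp2a4 and Cyp2j5 shared its sign. The call of Cyp2a4 was lost without Control 1 and with 5% of spots, and that of Cyp2j5 without either Control section. Cyp2d9, Cyp2d26 and Cyp2d12 had the opposite sign, led by Cyp2d9 at 1.76 ± 0.15 (edgeR, adjusted p = 7.57e-06). The median term was -0.14 over the members and -0.0003 over all genes tested.

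The levels over other marker-rich spot sets, each 10% of a section, placed the members along the nephron. In plain CPM, Cyp2a4, Cyp2d9 and Cyp2j11 were highest in S3 rich spots of every section, and Cyp2d26 and Cyp2d12 in S1 and S2 rich spots. Cyp2e1 and Cyp2j13 were highest in S3 rich spots of both Control sections, but in S1 and S2 rich spots of both Uox_KO sections. In spots rich in injury markers Cyp2e1 had 211 and 355 plain CPM in Uox_KO, against 1570 and 1298 in Control. The median summed injury markers of those spots were 16662 and 20039 plain CPM in Uox_KO and only 599 and 654 in Control, so the sets are not alike. Cyp2a5 in macrophage-rich spots had 9.65 and 9.60 plain CPM in Uox_KO, against 109 and 115 in Control. Cyp2d22 in the same spots had 42.4 and 39.7 plain CPM in Uox_KO, against 15.3 and 15.2 in Control. The macrophage-rich sets were not alike either. Their median summed macrophage markers were 5436 and 4859 plain CPM in Uox_KO and only 254 and 220 in Control. Their median S1 and S2 markers were 1737 and 2004 plain CPM in Uox_KO, against 10575 and 10245 in Control.

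Cyp2j6 and Cyp2u1 were highest in spots rich in distal convoluted and connecting tubule markers in every section. Cyp2s1 in collecting duct rich spots had 38.6 and 43.6 plain CPM in Uox_KO, against 23.2 and 32.7 in Control. Cyp2u1 in spots rich in distal convoluted and connecting tubule had 27.7 and 29.1 plain CPM in Uox_KO, against 18.9 and 20.8 in Control, and in S3 rich spots 2.40 and 6.14 in Uox_KO, against 5.03 and 4.28 in Control. Cyp2j6 in distal convoluted and connecting tubule rich spots had 76.1 and 100.4 plain CPM in Uox_KO and 85.2 and 90.3 in Control, with overlapping genotypes. No test was run on these levels.

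**Figure D4:**
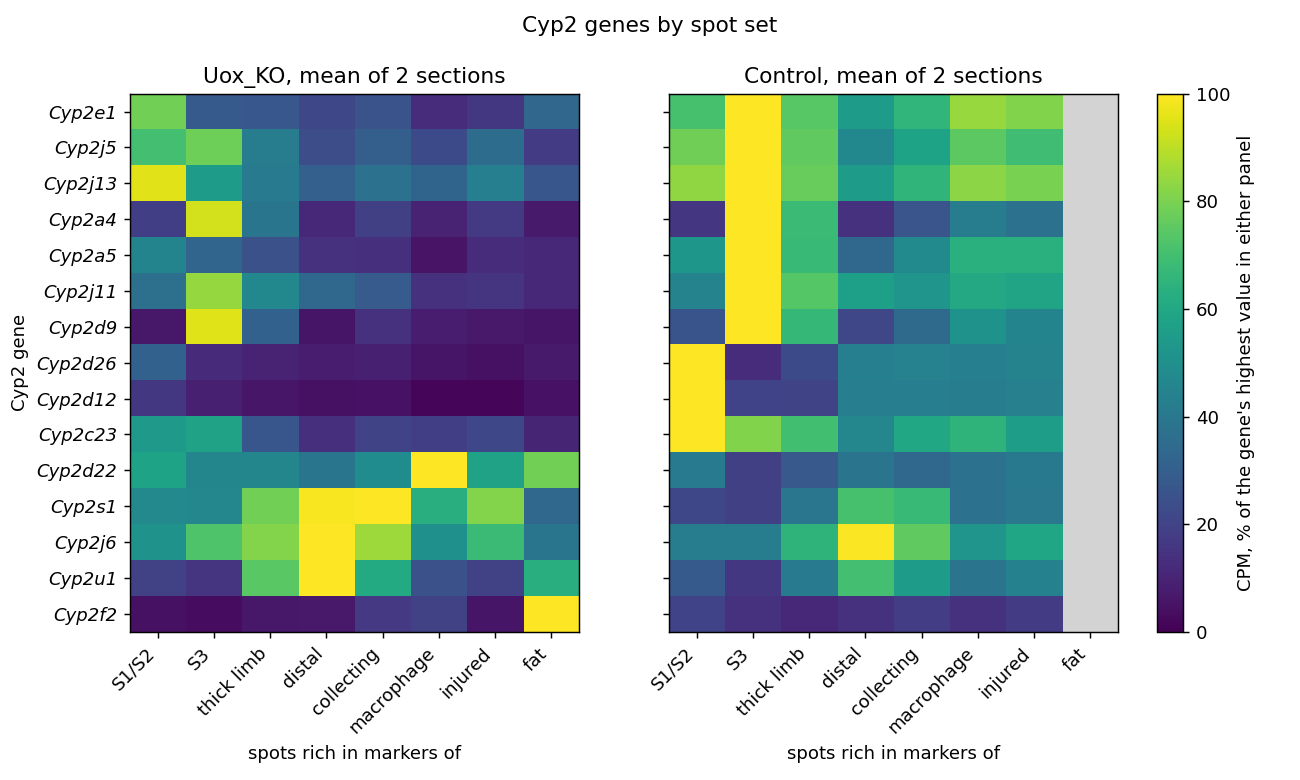
Mean plain CPM over the 2 sections of a genotype for 15 members in marker-rich spot sets, as a percent of the member's highest value in either panel, Uox_KO left of Control. Cyp2d26 and Cyp2d12 are strongest in S1 and S2 rich spots of both genotypes and Cyp2a4, Cyp2d9 and Cyp2j11 in S3 rich spots, and Control fat spots, 3 and 21 in number, are greyed out.

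Spots of a Uox_KO section were more unequal than spots of a Control section. Among spots with at least 5000 UMIs (2357 and 2438 in Uox_KO, 2522 and 3358 in Control), the median spot had 430 and 599 plain CPM of Cyp2e1 in Uox_KO, against 1741 and 1508 in Control. The spot at the 90th percentile was 34.1 and 14.6 times that at the 10th percentile in Uox_KO, against 2.72 and 2.97 times in Control. Of spots, 57.9% and 48.6% in Uox_KO lay under 576 CPM, the lower of the 5th percentiles of the Control sections, against 2.34% and 5.0% in Control. At the top of the range the genotypes were closer, the 90th percentile being 1423 and 1615 CPM in Uox_KO and 2466 and 2261 in Control. For Cyp2j5 the same ratio of percentiles was 14.5 and 12.2 in Uox_KO, against 2.15 and 2.45 in Control. Spots under 471 CPM of Cyp2j5, the corresponding limit, were 35.4% and 39.0% of those in Uox_KO and 2.70% and 5.0% in Control. Of the spots used, 273 and 502 in Uox_KO were fat spots and 88 and 34 were urothelium-rich. Whole Control sections held 3 and 21 fat spots and 0 and 0 urothelium-rich spots. Fat spots of Uox_KO had 445 and 723 plain CPM of Cyp2e1 and 186 and 305 of Cyp2j5. Spots in Uox_KO were also shallower. The part of depth and of fat or urothelium-rich spots in these ratios was not tested.

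**Figure D5:**
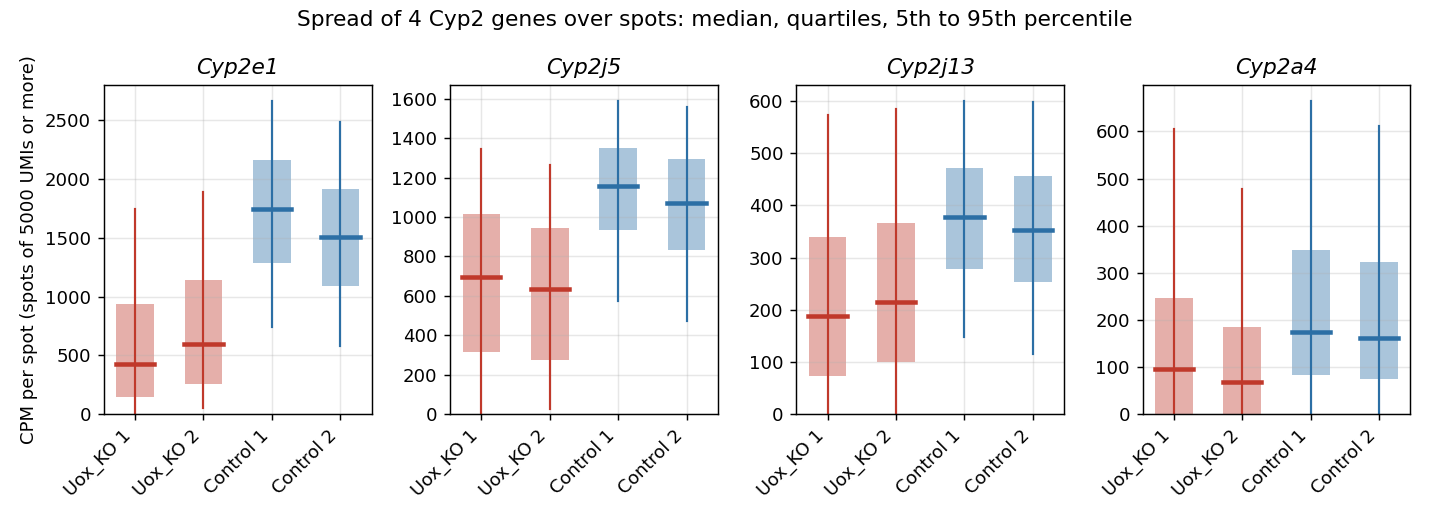
Plain CPM per spot of 4 members in each section, over spots with at least 5000 UMIs, Uox_KO left of Control, with the line at the median, the box over the quartiles and the whisker over the 5th to the 95th percentile. The Cyp2e1 medians are 430 and 599 CPM in Uox_KO, below 1741 and 1508 CPM in Control, and the Uox_KO whiskers reach close to 0.

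With every spot thinned to 5000 UMIs, the share of spots with at least 1 UMI of Cyp2e1 was 76.0% and 85.2% in Uox_KO, against 99.6% and 99.3% in Control (unthinned 90.1% and 96.2% in Uox_KO, against 99.96% and 100% in Control). For Cyp2d12 the thinned share was 2.72% and 3.79% in Uox_KO, against 20.1% and 18.6% in Control (unthinned 7.92% and 11.2% in Uox_KO, against 67.6% and 60.8% in Control). In urothelium-rich spots of Uox_KO, 1.01% and 0.864% of thinned spots had a Cyp2d12 UMI. Those spots also held S1 and S2 markers, at medians of 877 and 1363 plain CPM, so they give no background level for the gene. For Cyp2s1 the thinned share was 11.8% and 11.97% in Uox_KO, against 5.11% and 6.44% in Control (unthinned 34.1% and 34.8% in Uox_KO, against 28.4% and 30.6% in Control). Thinning left out 293 and 152 spots in Uox_KO and 6 and 4 spots in Control.

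Cyp2d26 sorted over spots with the other members in a different way in each genotype. Over spots with at least 5000 UMIs and 28 pairs of members, the 7 pairs with Cyp2d26 were positive in both Uox_KO sections and negative in both Control sections. Of the other pairs 20 were positive in all 4 sections, and Cyp2e1 with Cyp2d9 was at -0.08 in Uox_KO 1 and positive elsewhere. Spearman's rho of Cyp2e1 with Cyp2d26 was 0.34 and 0.30 in Uox_KO, against -0.30 and -0.25 in Control. Cyp2a4 with Cyp2d26 had 0.20 and 0.19 in Uox_KO, against -0.53 and -0.47 in Control. Cyp2a4 with Cyp2d9, both highest in S3 rich spots, had 0.52 and 0.44 in Uox_KO and 0.61 and 0.58 in Control. Cyp2d26 had 0 UMIs in 54.1% and 48.3% of these spots in Uox_KO, against 5.11% and 7.03% in Control. The part of these zeros, and of the fat spots in Uox_KO, in the signs was not tested. The points are spots of 1 library that share its depth and neighbours, so the coefficients are a description.

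Genes that serve or surround the P450s were read from lists by function, in whole sections, where 32.5% of all genes tested fell and 34.6% rose, with a median log2 difference of 0.0025. Of 6 electron donors 4 fell and 1 rose (median log2 difference -0.34). Cyb5a, cytochrome b5, had 733 and 748 CPM in Uox_KO, against 2244 and 2066 in Control, and fell by 1.54 on the log2 scale, while Por, the reductase that feeds all microsomal P450s, had 286 and 288 CPM in Uox_KO, against 394 and 382 in Control, and fell by 0.44. Por was not lower everywhere. In S1 and S2 rich spots it had 439 and 412 CPM in Uox_KO, against 315 and 315 in Control, and rose by 0.43 ± 0.07 (edgeR, adjusted p = 4.66e-05), and in S3 rich spots it had 357 and 376 CPM in Uox_KO, against 436 and 450 in Control, and fell by 0.27 ± 0.08 (adjusted p = 0.0255). Cyb5a fell in both spot sets, with 958 and 995 CPM in Uox_KO, against 1559 and 1581 in Control, in S1 and S2 rich spots. Of 13 genes of haem synthesis and breakdown 8 fell, among them Uros (-1.03), Blvra (-0.90) and Slc25a38 (-0.89), and 1 rose. That was Hmox1, which degrades haem, with 34.6 and 36.5 CPM in Uox_KO, against 19.97 and 20.2 in Control. These calls are edgeR's at an adjusted p under 0.05, as are those that follow.

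Of 8 genes that release arachidonic acid or hydrolyse epoxides 2 fell and 4 rose, with a median log2 difference of 0.42. Ephx2, which hydrolyses the fatty acid epoxides made by Cyp2j and Cyp2c enzymes, had 394 and 352 CPM in Uox_KO, against 535 and 527 in Control, and fell by 0.51. In S1 and S2 rich spots, however, Ephx2 had 457 and 435 CPM in Uox_KO, against 360 and 401 in Control, and rose by 0.23 ± 0.07 (edgeR, adjusted p = 0.0187), while in S3 rich spots it had 587 and 534 CPM in Uox_KO, against 667 and 704 in Control, and fell by 0.29 ± 0.09 (adjusted p = 0.0301). Ephx1, the microsomal epoxide hydrolase, had 96.6 and 70.9 CPM in Uox_KO, against 23.3 and 26.3 in Control, and rose by 1.75. Of 17 tested nuclear receptors and transcription factors 7 fell and 7 rose, shares not far from those of all genes, with a median of 0.07. Hnf4a, whose product drives many genes of liver and proximal tubule, had 156 and 141 CPM in Uox_KO, against 288 and 269 in Control. It fell by 0.91 on the log2 scale, whereas Cebpb, a factor of stressed and inflamed tissue, rose by 1.36 and Nr1i3, the receptor that induces Cyp2b10 in mouse liver, by 1.59.

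Of 17 tested conjugating enzymes and microsomal oxidases 13 fell and 1 rose, with a median log2 difference of -0.81. Ugt2b38, a glucuronosyltransferase, had 370 and 490 CPM in Uox_KO, against 1380 and 1231 in Control, and fell by 1.60. In S1 and S2 rich spots it had 1071 and 1203 CPM in Uox_KO, against 1301 and 1235 in Control, and was not called (edgeR, adjusted p = 0.0981). In S3 rich spots it had 120 and 344 CPM in Uox_KO, against 1294 and 1229 in Control, and fell by 2.44. Of 17 tested genes of the list, 10 fell and 4 rose in S1 and S2 rich spots, against 19.1% and 22.2% of all genes there. In whole sections the fatty acid hydroxylases of the Cyp4 family moved differently, with 3 of 13 lower and 8 higher and a median of 1.03. Cyp4b1 had 1069 and 1280 CPM in Uox_KO, against 6838 and 6279 in Control, while Cyp4a14 had 991 and 974 CPM in Uox_KO, against 23.9 and 19.7 in Control. Of 14 tested P450s of other families 2 fell, Cyp24a1 (-1.79) and Cyp27a1 (-0.82), and 6 rose, led by Cyp26a1 (1.91), Cyp26b1 (1.89) and Cyp7b1 (1.64), with a median of 0.26. Cyp7b1 is also one of the S3 markers listed here.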

How the data were processed

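The authors deposited tables of unnormalised UMI counts for each gene in each spot. The submitters' processing notes name Space Ranger 1.3.1 and the mm10 build. How reads shared by near-identical genes were counted is not given in the sources used here. Every spot was used for whole sections, and spots with at least 500 UMIs for spot sets. Counts were summed per section, or per spot set of a section, because the section is the replicate. The titles name 1 mouse per section, and p-values measure the spread between these sections. Replicate numbers follow the labels, from which those in file names differ. Sums were filtered with filterByExpr, given TMM factors and compared between genotypes by the quasi-likelihood F test of edgeR 4.0.16, run in R 4.3.3, with Benjamini-Hochberg adjustment over all genes tested, at a threshold of 0.05. The code was tested on simulated data. Spot sets were the 10% of spots with the highest mean relative level of the markers that had at least 10 CPM in every section. For the macrophage, stroma and injured tubule sets the 10 CPM were asked of the Uox_KO sections only. Control spots of these sets were thus ranked partly on markers near 0, such as Havcr1 at 0.278 plain CPM in each Control section. Spots in both proximal sets (1 and 8 in Uox_KO, 0 and 0 in Control) were left out. DESeq2 1.42.0, other scalings, filters and set sizes, a replicate block, and leaving out each section were tried as alternatives. The members, marker and pathway lists, motifs and tests were chosen with earlier results of these data known. Values per section are printed for members with a mean of at least 10 CPM in either genotype, and of each pathway list up to 3 called genes with the largest rise and up to 3 with the largest fall could be named. A result from the list of transcription factors is not reported here.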

Additional observations from a re-analysis of the deposited data

Results flagged for a closer look

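For 8 members the genotype difference differed between the S3 rich and the S1 and S2 rich spots by a test of that difference (edgeR's quasi-likelihood test, Benjamini-Hochberg adjusted p under 0.05). The values are the Uox_KO over Control log2 difference in S3 rich spots minus that in S1 and S2 rich spots. It was -2.28 ± 0.27 (SE) for Cyp2e1, -1.64 ± 0.29 for Cyp2a5, -1.28 ± 0.16 for Cyp2j13, -0.52 ± 0.11 for Cyp2a4 and -0.38 ± 0.07 for Cyp2j5. It was 1.76 ± 0.15 for Cyp2d9, 1.45 ± 0.14 for Cyp2d26 and 1.23 ± 0.18 for Cyp2d12. Leaving out Uox_KO 1 gave -1.63 for Cyp2e1 and -0.95 for Cyp2a5, and leaving out Uox_KO 2 gave -2.96 and -2.47. The S1 and S2 markers of the S3 rich spots and the injury markers of both sets differed between genotypes, and their part in these values was not tested.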

How the results depend on the processing

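Under the alternatives, results of single members kept their side of the threshold in 653 cases, were no longer called in 48 and were newly called in 27. A called result changed sign in 1 case, Cyp2e1 in S1 and S2 rich spots (-0.073 with 20% of spots). Changes of sign between fits that both gave no call were counted among the 653. In S1 and S2 rich spots DESeq2 called 4 members lower and 2 higher, against 7 and 6, and library size without TMM called 3 higher. Leaving out each section in turn gave 12 to 16 lower and 2 higher members in whole sections, 5 to 8 lower and 2 to 5 higher in S1 and S2 rich spots, 8 to 13 lower and 3 higher in S3 rich spots, and 3 to 5 lower and 3 to 4 higher for the difference between spot sets. Over all genes of the S1 and S2 rich spots, 2337 fell and 2710 rose, against 1208 and 1668 with DESeq2 and 1479 and 1794 with 5% of spots. In S3 rich spots 2649 fell and 2953 rose, against 1643 and 2032 with DESeq2 and 1620 and 2039 without Control 2. The difference between spot sets had 934 negative and 543 positive genes, against 551 and 382 without Control 1, 523 and 358 without Control 2, 1418 and 885 without Uox_KO 2, and 551 and 268 with 5% of spots. Equal replicate numbers were not taken to pair sections, since deviations of same-numbered sections from their group means correlated at only 0.0899 and no label ties them. With the replicate block, 15 members fell and 2 rose in whole sections, 7 and 5 in S1 and S2 rich spots, and 10 and 3 in S3 rich spots. Counts of lower members here can include members that passed the filter through the Control sections alone and so had to come out lower. These are Cyp2c38 and Cyp2c68 in whole sections, Cyp2f2 in S1 and S2 rich spots, and Cyp2b10 and Cyp2f2 in S3 rich spots. The cases of single members include them too. Cyp2c69, not tested in the main fit, was called lower in some alternatives. Leaving out a section leaves a lone sample that is assumed to vary like the other genotype. Members under about 1 CPM rest on few UMIs, and the shallower Uox_KO spots limit what can be seen of them. The cause of these changes was not tested.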

Other observations

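Both Cyp2 genes next under the UMI minimum were detected in Uox_KO sections alone. Cyp2c55 had 7 and 7 UMIs in Uox_KO and 0 and 0 in Control, and Cyp2c65 had 4 and 13 UMIs in Uox_KO and 0 and 0 in Control. A count of 0 allows up to 3 UMIs per section, and the Control sections were the deeper ones.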
